A study of Saccharomyces cerevisiae with 2 samples.

Results

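The mating-type specific genes of budding yeast were examined as a set of 10 genes out of 6002 nuclear protein-coding genes. They comprised 6 a-specific genes (MFA1, MFA2, STE6, STE2, BAR1 and AGA2) and 4 α-specific genes (MF(ALPHA)1, MF(ALPHA)2, STE3 and SAG1). The genes were chosen by name, and their regions ran from 800 bp before the start codon to 300 bp after the stop codon on the R64 (sacCer3) genome. Nuclei of Saccharomyces cerevisiae S288C, grown at 30 °C and fixed with formaldehyde, were incubated for 1 h at 37 °C with 1 of 2 cytosine methyltransferases. CCMT, the enzyme under test, methylates the first cytosine of CC, and GCMT methylates the cytosine of GC. Both enzymes reach DNA that is not covered by nucleosomes or other proteins, so a high methylation level marks accessible DNA. There was 1 library per enzyme, both of fixed S288C nuclei. No test between conditions was therefore possible, and 95% exact binomial (Clopper-Pearson) intervals over pooled reads cover counting error only. Reads may include copies of 1 molecule, which these intervals do not count.

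Haploid yeast cells are of mating type a or α, set by the allele at the MAT locus. In α cells the repressor α2 binds with Mcm1 to an operator upstream of the a-specific genes and recruits the Tup1-Cyc8 corepressor, while α1 binds with Mcm1 and turns on the α-specific genes. In a cells neither protein is made, Mcm1 and the pheromone-responsive factor Ste12 drive the a-specific genes, and the α-specific genes are off. The labels do not give the mating type of the culture. The S288C reference genome carries MATALPHA1 and MATALPHA2 at MAT, the α form, but the allele of these nuclei was not checked here.

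All 6 a-specific genes held a match to the α2 operator, searched as a pair of inverted half-sites CATGTANNT on both strands with a total length of 30 to 33 bp and at most 2 mismatches in the 14 fixed letters. The matches are printed because accessibility was later aligned on them, in the direction of each gene and with the half-sites in capitals.
MFA1 operator, chrIV:1384942-1384972, plus strand: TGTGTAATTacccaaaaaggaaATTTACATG
MFA2 operator, chrXIV:352163-352193, plus strand: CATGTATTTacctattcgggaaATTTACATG
STE6 operator, chrXI:46477-46507, minus strand: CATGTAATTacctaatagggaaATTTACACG
STE2 operator, chrVI:82351-82381, plus strand: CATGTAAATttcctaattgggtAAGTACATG
BAR1 operator, chrIX:322078-322107, plus strand: CATGTAATTaccgtaaaaggaAATTACATG
AGA2 operator, chrVII:437102-437131, minus strand: CATGTAATTtccgaatacggtAATTACACG
MFA2, STE2 and BAR1 had 0 mismatches, STE6 and AGA2 had 1 and MFA1 had 2. Each operator began between −298 (AGA2) and −212 (STE6), counted from the first base of the start codon. None of the 4 α-specific genes held a match. Of 5997 promoters with 800 bp upstream, 2.30% held one with up to 2 mismatches and 0.0834%, or 5 promoters, held one with none.

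The core of the Q box, the α1 recognition sequence, was searched as CAATGNCAG on both strands. MF(ALPHA)2, STE3 and SAG1 held it, MF(ALPHA)1 did not, and among the a-specific genes BAR1 held it at −775. Of all promoters 2.57% held it. The matches in the α-specific genes are shown with 20 bases on each side, the core in capitals.
MF(ALPHA)2, chrVII:345425-345473, minus strand: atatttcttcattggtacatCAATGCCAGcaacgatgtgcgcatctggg
STE3, chrXI:114940-114988, minus strand: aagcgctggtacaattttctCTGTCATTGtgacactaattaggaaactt
SAG1, chrX:445103-445151, minus strand: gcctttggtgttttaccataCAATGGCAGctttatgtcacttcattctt
The STE3 match lay on the strand opposite to the gene. TGAAACA, the pheromone response element bound by Ste12, stood upstream of 6 of 6 a-specific genes and of 2 of 4 α-specific genes, MF(ALPHA)2 and SAG1, against 18.8% of all promoters. TATAAA stood upstream of 6 of 6 a-specific and 3 of 4 α-specific genes, against 72.2% of all promoters, and TATATA upstream of 3 of 6 and 3 of 4, against 56.8%. A match to these letters is a description of the sequence and was not tested for binding.

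The CCMT library listed 1550 of the 1554 CC cytosines in the 10 regions, with 45198 reads, and the GCMT library listed 1702 of the 1742 GC cytosines, with 23413 reads. Mean coverage was 23.0 to 31.8 reads per cytosine in the 10 regions for CCMT and 10.1 to 16.5 for GCMT, so single GCMT levels were the less precise. The mean level over all listed nuclear cytosines was 9.71% for CCMT and 10.1% for GCMT. At most 0.919% of the 75-base sequences of a region (MF(ALPHA)1) occurred elsewhere in the genome, so the paired pheromone genes were separable by sequence.

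The promoter regions of the a-specific genes, set from −250 to −100 bp of the start codon, were methylated at a level close to that of coding sequence. Adjoining ranges share a printed limit but no base. Their median level was 9.86% in the CCMT library and 6.45% in the GCMT library. The median of the α-specific genes was 16.8% in the CCMT library and 12.8% in the GCMT library, and that of all genes 18.0% in the CCMT library and 19.3% in the GCMT library. All 6 a-specific genes lay below the all-gene median in both libraries, as did 3 of 4 α-specific genes, the exception being SAG1 with CCMT and STE3 with GCMT. For some a-specific genes the counting interval reached past that median. With GCMT this was MFA1, on 2 cytosines and 29 reads (interval 2.19 to 27.4%), which is also counted in the 6.45%. With CCMT it was MFA2 (up to 20.2%) and BAR1 (up to 18.6%). The difference between the group medians, a-specific minus α-specific, was −6.89 percentage points with CCMT and −6.37 with GCMT. The groups overlapped with either enzyme, and MF(ALPHA)2 was among the least methylated members with both. With CCMT it was the only α-specific gene inside the a-specific range. With GCMT, MF(ALPHA)1 at 12.1% also lay below STE6 at 13.1%, and SAG1 at 13.5% was close above STE6.

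**Figure D1:**
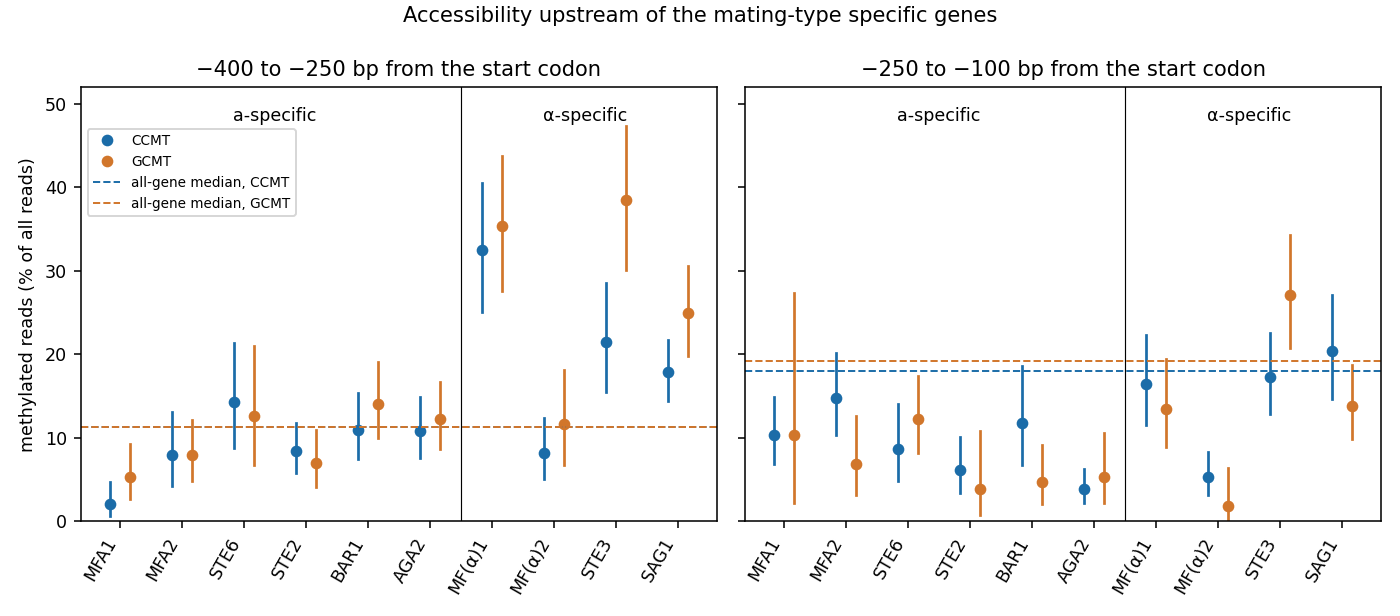
Percent of reads methylated upstream of each mating-type specific gene in the CCMT and GCMT libraries, for −400 to −250 bp (left) and −250 to −100 bp (right) of the start codon. Points are pooled reads of 1 library, bars are 95% exact binomial intervals and dashed lines are medians over all genes of the mean level per region. On the left, the 3 α-specific genes other than MF(ALPHA)2 stand above the all-gene median with both enzymes. So do STE6 with both enzymes and MF(ALPHA)2, BAR1 and AGA2 with GCMT only. On the right, the a-specific genes stand below the all-gene median.

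MFA1 (YDR461W, chromosome IV, 1385176 to 1385286) and MFA2 (YNL145W, chromosome XIV, 352414 to 352530) encode the precursors of a-factor, the pheromone secreted by a cells. The promoter level of MFA1 was 10.7% with CCMT (8 cytosines, 241 reads, interval 6.83 to 14.9%). With GCMT it was 7.89%, from only 2 cytosines and 29 reads (interval 2.19 to 27.4%), so MFA1 could not enter the GCMT counts that needed 3 cytosines. MFA2 had the highest promoter level of the a-specific genes with CCMT, 14.8% (10 cytosines, 217 reads, interval 10.3 to 20.2%), against 7.22% with GCMT (10 cytosines, 132 reads, interval 3.17 to 12.6%). Further upstream, from −400 to −250, MFA1 was among the least methylated of all genes. Its level there was 2.36% with CCMT, with 21 of 5853 genes lower, and 4.25% with GCMT, with 401 of 5692 lower. The same stretch of MFA2 had 7.74% with CCMT and 8.63% with GCMT.

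STE6 (YKL209C, chromosome XI, 42423 to 46295, minus strand) encodes the transporter that exports a-factor. Its promoter level was 9.02% with CCMT (7 cytosines, 162 reads, interval 4.81 to 14.1%) and 13.1% with GCMT (14 cytosines, 212 reads, interval 8.17 to 17.5%). The sequence of that region is shown to place the operator among the cytosines the enzymes could read. Capitals mark target cytosines of either enzyme, or the G opposite one.
STE6 promoter region, chrXI:46396-46545, minus strand, from −250: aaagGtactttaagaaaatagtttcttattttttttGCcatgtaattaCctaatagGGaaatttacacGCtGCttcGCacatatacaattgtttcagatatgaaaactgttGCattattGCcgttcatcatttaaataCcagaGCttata
The 7 CC cytosines had 3 of 30 reads methylated at −246, and levels of 21.4% at −213, 7.14% at −202, 13.3% at −194, 6.67% at −193, 0% at −130 and 4.55% at −112, each over 14 to 30 reads. The 14 GC cytosines had a median of 10.5%, and the highest of them, 33.3% at −214, stood next to the operator on 6 reads. The highest value with each enzyme stood beside the operator, on 14 reads with CCMT and 6 with GCMT. Among GC cytosines with at least 10 reads the highest was 25% at −182, the last base of the operator. The lowest value, 0%, stood between the operator and the gene, at −130 with CCMT (22 reads) and at −107 with GCMT (15 reads). With so few reads per cytosine, the order of single positions is uncertain.

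STE2 (YFL026W, chromosome VI, 82580 to 83875) encodes the receptor for α-factor, and BAR1 (YIL015W, chromosome IX, 322342 to 324105) a secreted protease that degrades α-factor. STE2 had 6.31% with CCMT (9 cytosines, 228 reads, interval 3.40 to 10.1%) and 4.32% with GCMT (6 cytosines, 78 reads, interval 0.800 to 10.8%). Only 5.18% of genes lay lower with CCMT and 2.89% with GCMT. BAR1 had 10.9% with CCMT (5 cytosines, 128 reads, interval 6.71 to 18.6%) and 5.41% with GCMT (12 cytosines, 169 reads, interval 2.07 to 9.11%).

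AGA2 (YGL032C, chromosome VII, 436570 to 436833, minus strand) encodes the adhesion subunit of a-agglutinin, through which a cells bind α cells. It had the lowest CCMT promoter level of the 10 genes, 3.82% (9 cytosines, 394 reads, interval 2.15 to 6.20%), and 5.68% with GCMT (8 cytosines, 133 reads, interval 2.14 to 10.5%). With CCMT 0.912% of genes lay lower. In order of CCMT level the a-specific genes ran MFA2, BAR1, MFA1, STE6, STE2, AGA2, and the intervals of neighbours in this order overlapped.

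MF(ALPHA)1 (YPL187W, chromosome XVI, 193648 to 194145) and MF(ALPHA)2 (YGL089C, chromosome VII, 344791 to 345153, minus strand) both encode precursors of α-factor, of which MF(ALPHA)1 is known as the main source. Upstream, the pair differed. From −400 to −250, MF(ALPHA)1 reached 32.8% with CCMT (9 cytosines, 151 reads, interval 25.1 to 40.5%) and 35.5% with GCMT (8 cytosines, 144 reads, interval 27.6 to 43.8%). MF(ALPHA)2 had 8.42% with CCMT (6 cytosines, 244 reads, interval 5.08 to 12.4%) and 12.9% with GCMT (14 cytosines, 138 reads, interval 6.77 to 18.1%), and the intervals of the 2 genes did not overlap with either enzyme. In the region from −250 to −100, MF(ALPHA)1 had 16.2% with CCMT and 12.1% with GCMT, against 5.33% (interval 3.20 to 8.31%) and 2.36% (interval 0.221 to 6.41%) for MF(ALPHA)2. MF(ALPHA)2 had its highest windows far from the gene, with 41.9% by CCMT from −800 to −750 (2 cytosines) and 37.6% by GCMT from −700 to −650 (6 cytosines). Those windows lie at the start of the divergent gene YGL088W, which begins 683 bp upstream.

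The last 100 bp before the start codon of MF(ALPHA)1 hold no CC and no GC on either strand, so neither enzyme could report on them. The stretch is printed to show this blind spot, and it has no capital because it has no target.
MF(ALPHA)1, chrXVI:193548-193647, plus strand, the last 100 bp: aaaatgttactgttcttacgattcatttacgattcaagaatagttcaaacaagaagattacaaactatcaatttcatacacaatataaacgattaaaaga

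STE3 (YKL178C, chromosome XI, 113215 to 114627, minus strand) encodes the receptor for a-factor. Its promoter level was 17.3% with CCMT (12 cytosines, 254 reads, interval 12.9 to 22.6%) and 25.2% with GCMT (12 cytosines, 177 reads, interval 20.7 to 34.3%), the highest GCMT value of the 10 genes. From −400 to −250 it had 21.9% with CCMT (interval 15.4 to 28.6%) and 37.9% with GCMT (interval 30.1 to 47.4%). The stretch that includes its Q box core is shown with target positions in capitals, for comparison with STE6.
STE3, chrXI:114828-114977, minus strand, from −350: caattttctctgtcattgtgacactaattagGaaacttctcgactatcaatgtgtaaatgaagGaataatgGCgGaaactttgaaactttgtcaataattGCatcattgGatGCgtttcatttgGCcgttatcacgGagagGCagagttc
Its 9 CC cytosines read between 11.8% (at −209) and 37.5% (at −279), and its 10 GC cytosines between 0% (at −238) and 52.6% (at −237). The median over CC cytosines was 7.14% in the STE6 stretch and 21.1% in the STE3 stretch, and the median over GC cytosines 10.5% in STE6 and 37.3% in STE3. The stretches lie at different distances from their genes, and the promoter levels given above, over the same distances, differ less. A single cytosine was at 0 in the STE3 stretch, the GC cytosine at −238 with 14 reads, although its partner on the other strand had 10 methylated reads of 19.

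SAG1 (YJR004C, chromosome X, 442909 to 444861, minus strand) encodes α-agglutinin, the adhesion partner of AGA2 on α cells. It had the highest CCMT promoter level of the 10 genes, 19.1% (8 cytosines, 172 reads, interval 14.6 to 27.2%), and 13.5% with GCMT (14 cytosines, 253 reads, interval 9.83 to 18.7%). From −400 to −250 it had 17.1% with CCMT (interval 14.4 to 21.8%) and 25.9% with GCMT (interval 19.8 to 30.6%). In order of CCMT promoter level the α-specific genes ran SAG1, STE3, MF(ALPHA)1, MF(ALPHA)2. Of the neighbours in this order, those from SAG1 to MF(ALPHA)1 had overlapping intervals, and MF(ALPHA)2 lay below MF(ALPHA)1 without overlap.

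Against their own coding sequence, few a-specific promoters stood out. With CCMT, 1 of 6 a-specific genes (MFA1) and 3 of 4 α-specific genes (MF(ALPHA)1, STE3 and SAG1) had a promoter level at least 2 times the coding level, against 56.6% of all genes. With GCMT, 0 of 5 a-specific and 2 of 4 α-specific genes (STE3 and SAG1) did, against 61.3% of all genes. The median ratio of promoter to coding level was 1.22 for the a-specific and 2.38 for the α-specific genes with CCMT, against 2.20 for all genes. With GCMT it was 0.842 for the a-specific and 1.60 for the α-specific genes, against 2.43 for all genes. Median coding levels differed little between the groups, with 7.79% for the a-specific and 6.60% for the α-specific genes with CCMT, and 6.65% for the a-specific and 8.05% for the α-specific genes with GCMT. The coding sequence of MFA1 was low in both libraries, at 4.77% with CCMT (12 cytosines) and 1.30% with GCMT (14 cytosines), which lifted its ratio. That of MF(ALPHA)1 was high with GCMT, at 13.3% (74 cytosines, interval 11.2 to 16.1%), against 7.92% with CCMT (49 cytosines, interval 6.62 to 9.62%). Its ratio was 0.909 with GCMT, where its promoter level was also the lower, and 2.04 with CCMT.

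Promoter regions below the mean level of the nuclear genome were counted as well, a limit chosen after the values were seen. With CCMT, 3 of 6 a-specific genes (STE6, STE2 and AGA2) and 1 of 4 α-specific genes (MF(ALPHA)2) lay below it, against 16.5% of all genes. With GCMT, 4 of 5 a-specific genes (MFA2, STE2, BAR1 and AGA2) and MF(ALPHA)2 did, against 19.2% of all genes. STE6 was thus below the mean with CCMT only, and MFA2 and BAR1 with GCMT only. None of the 10 genes reached 1.5 times the all-gene median in this region, which 18.7% of all genes did with CCMT and 21.4% with GCMT.

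The separation between the groups depended on the distance from the gene. From −400 to −250, a region chosen after its values were seen, the difference between the group medians, a-specific minus α-specific, was −9.77 percentage points with CCMT and −20.6 with GCMT. The a-specific medians were 9.73% with CCMT and 10.04% with GCMT, and the α-specific medians 19.5% with CCMT and 30.7% with GCMT. The all-gene medians there were 11.2% with CCMT and 11.3% with GCMT. MF(ALPHA)1, STE3 and SAG1 reached at least 1.5 times the all-gene median in both libraries, and 0 of 6 a-specific genes did, against 28.9% of all genes with CCMT and 31.4% with GCMT. With GCMT these 3 genes lay above every a-specific gene, of which BAR1 was the highest at 13.5%. With CCMT, STE6 at 16.6% came close to SAG1 at 17.1%. From −800 to −400 the difference was −4.80 points with CCMT and −7.38 with GCMT. In the last 100 bp before the start codon the medians ran the other way. They were 9.26% for the 6 a-specific and 5.57% for 3 α-specific genes with CCMT, and 4.35% for the a-specific and 2.82% for the α-specific genes with GCMT. The α-specific values there were few and spread. With GCMT they were 0% for MF(ALPHA)2 (2 cytosines, 13 reads), 2.82% for SAG1 and 11.5% for STE3, so the GCMT direction rests on MF(ALPHA)2. With CCMT, STE3 had 0 of 38 reads methylated, at 3 cytosines.

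**Figure D2:**
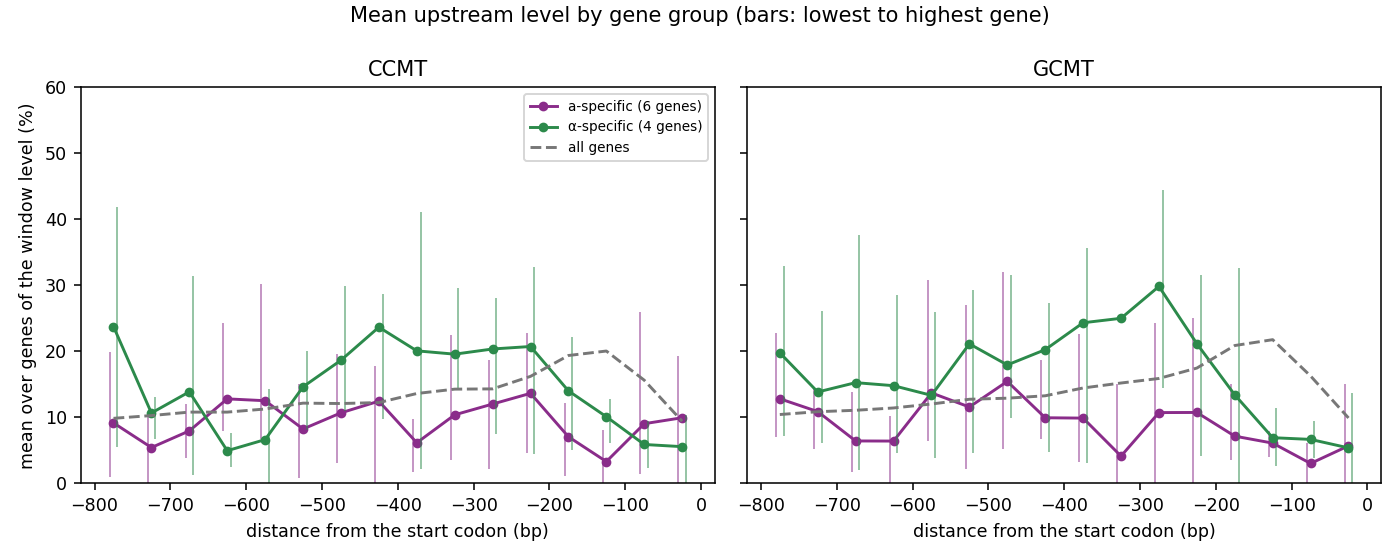
Mean level in 50-bp windows upstream of the start codon for the a-specific genes, the α-specific genes and all nuclear protein-coding genes, in the CCMT (left) and GCMT (right) libraries. Vertical bars run from the lowest to the highest gene of a group. Over all genes the level is highest at −150 to −100, where both groups are low, and the α-specific mean is above the all-gene mean between −450 and −200.

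The position of highest accessibility differed from that of an average gene. Averaged over all genes, the level was highest from −150 to −100, with 20.04% in the CCMT library and 21.8% in the GCMT library. In that window the a-specific genes averaged 3.29% with CCMT, with a range over 6 genes of 0 to 8.04%. With GCMT they averaged 6.09%, with a range over 5 genes of 4.06 to 7.89%. The 4 α-specific genes averaged 10.1% with CCMT (range 6.13 to 12.8%) and 6.91% with GCMT (range 2.62 to 11.5%), so every member with a listed cytosine lay below the all-gene mean there. The α-specific mean exceeded the a-specific mean in 12 of 16 upstream windows with CCMT and in 14 of 16 with GCMT. Among the a-specific genes the group mean exceeded the all-gene mean in 4 of 16 windows with either enzyme.

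**Figure D3:**
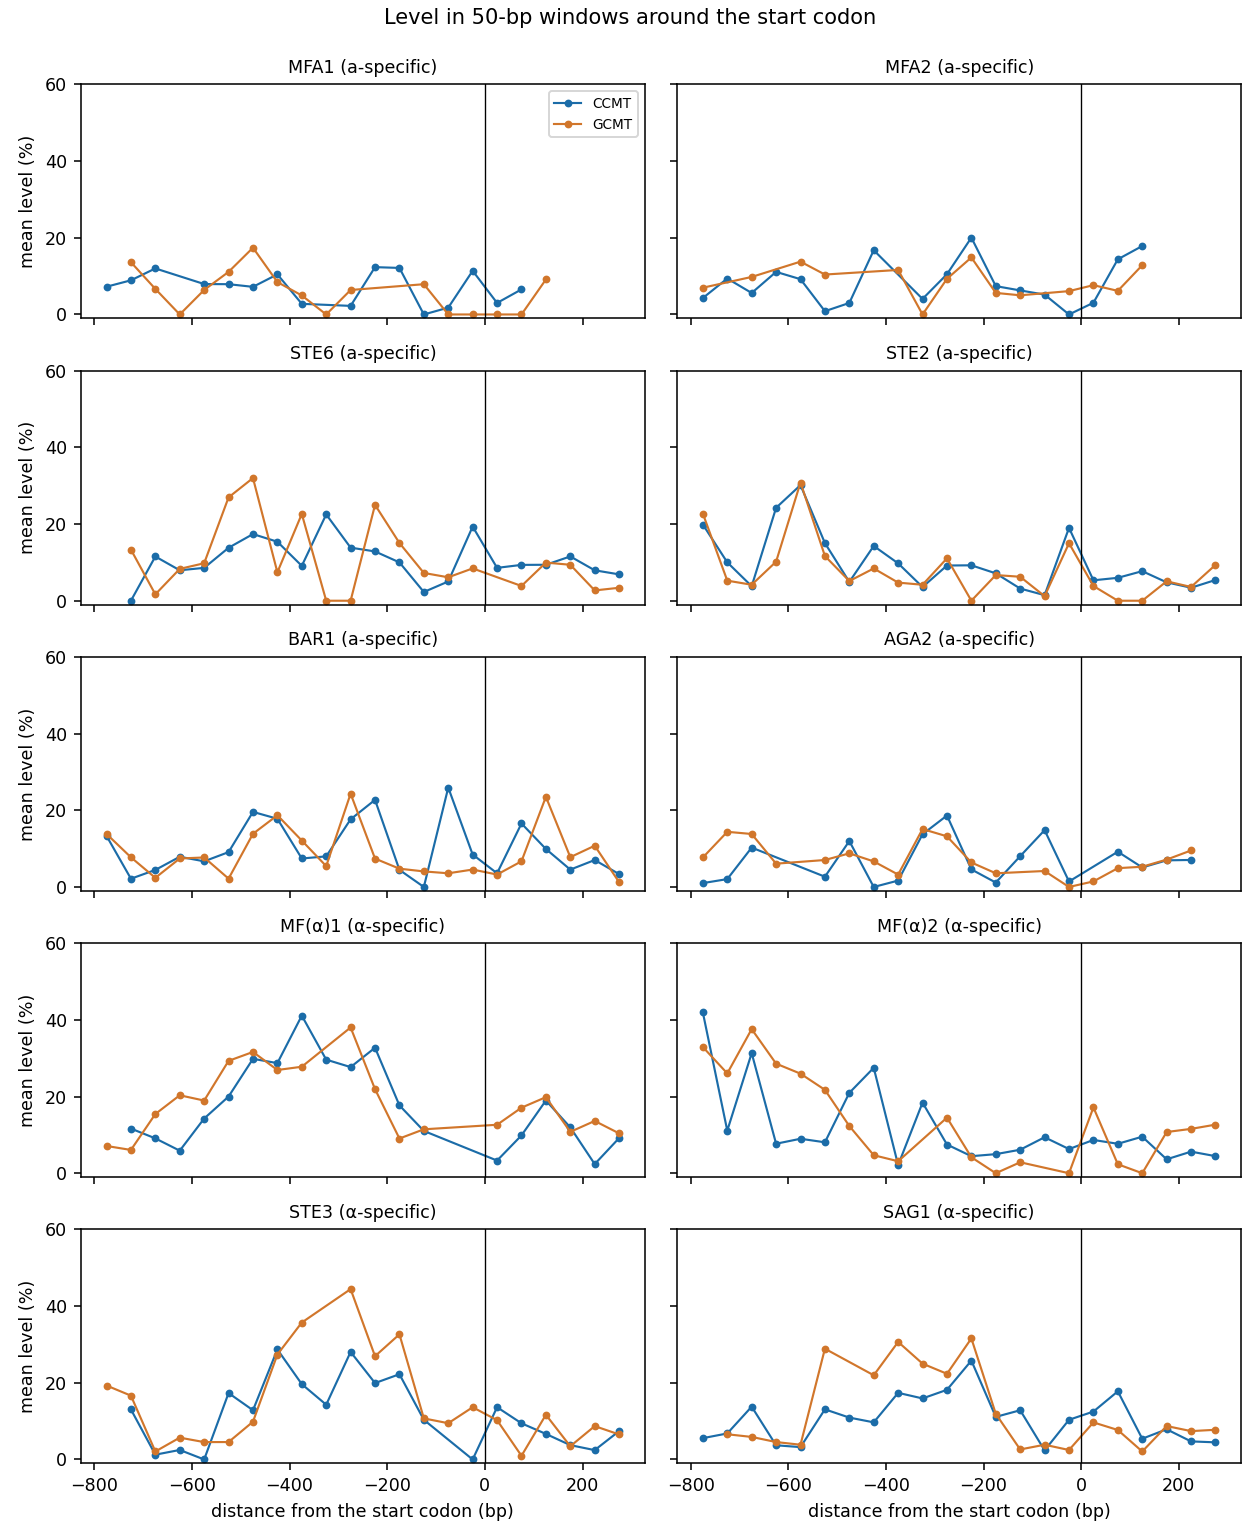
Mean level in 50-bp windows from −800 to at most 300 bp after the first base of the start codon, for each gene and library, with windows that hold no listed cytosine left out. MF(ALPHA)1, STE3 and SAG1 carry a broad raised stretch between about −450 and −200, whereas STE6 and STE2 have their highest GCMT windows at −500 to −450 and −600 to −550.

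The raised stretch of MF(ALPHA)1 peaked at 41.1% with CCMT (−400 to −350, 3 cytosines, 44 reads) and at 38.0% with GCMT (−300 to −250, 6 cytosines, 111 reads). STE3 peaked at 28.7% with CCMT (−450 to −400) and at 44.4% with GCMT (−300 to −250, 2 cytosines, 40 reads). SAG1 peaked in the same window with both enzymes, from −250 to −200, with 25.8% by CCMT and 31.6% by GCMT. Among the a-specific genes, MFA2, BAR1 and AGA2 had lower peaks near their operators. MFA2 peaked at 20.04% with CCMT (6 cytosines) and 14.9% with GCMT (2 cytosines, 28 reads) in the window from −250 to −200, which holds most of its operator. BAR1 had 22.7% with CCMT in the same window (2 cytosines, 57 reads) and 24.3% with GCMT from −300 to −250 (4 cytosines, 59 reads). AGA2 had 18.6% with CCMT (3 cytosines) and 13.2% with GCMT (2 cytosines, 48 reads) from −300 to −250, the window of its operator, while its highest GCMT window was the next one out, −350 to −300, with 15.1% (8 cytosines). The highest CCMT window of MFA1, 12.3% from −250 to −200 (3 cytosines), also held its operator, and had no listed GC cytosine. The highest GCMT window of MFA1, 17.4% from −500 to −450 (4 cytosines, 42 reads), lay away from the operator.

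STE6 and STE2 had their highest windows further upstream. STE2 had 30.2% with CCMT and 30.8% with GCMT from −600 to −550, between it and the divergent gene GYP8, whose start lies 668 bp upstream. STE6 had 22.5% with CCMT from −350 to −300 (4 cytosines, 41 reads), outside any annotated neighbour, and 32.0% with GCMT from −500 to −450, inside the tRNA gene TRT2, which spans 440 to 511 bp upstream. From −800 to −400, the STE6 level was 18.0% with CCMT and 33.6% with GCMT inside TRT2, against 6.60% with CCMT and 7.68% with GCMT at the other cytosines.

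Levels were also aligned on the operator, counting reads of the 6 a-specific genes by the distance from its edge toward the gene. A gene without a listed cytosine in a stretch adds nothing to it. With CCMT the operator itself, where each gene has CC or GG near its centre, had 11.1% methylated reads (46 of 415, interval 8.23 to 14.5%). The first 50 bp after it had 14.3% (interval 10.7 to 18.6%), over 5 genes, as STE6 had no listed cytosine there. The next stretches were low, with 3.37% at 50 to 100 bp (interval 1.97 to 5.34%) and 3.67% at 100 to 150 bp (interval 2.19 to 5.74%). At 150 to 200 bp the level was 15.0% (interval 11.9 to 18.6%), and at 200 to 250 bp 3.74% (interval 2.36 to 5.60%). Each of the 6 genes was at or below 9.51% in both low stretches before 150 bp, and at 150 to 200 bp they ranged from 3.85 to 19.8%.

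With GCMT the operator had 20.5% (16 of 78 reads, 4 cytosines in 4 genes, interval 12.2 to 31.2%) and the 50 bp before it 13.4% (interval 10.5 to 16.8%). Each of these 4 cytosines was the outermost base of its match, in MFA2, STE6, BAR1 and AGA2. The GCMT value thus covers the edge of the operator and not the centre that CCMT read. The level was 7.77% in the first 50 bp after the operator (interval 5.37 to 10.8%), 6.77% at 50 to 100 bp (interval 3.99 to 10.6%) and 2.81% at 100 to 150 bp (interval 1.14 to 5.71%). It was 6.18% at 150 to 200 bp (interval 3.13 to 10.8%) and 9 of 300 reads at 200 to 250 bp (interval 1.38 to 5.62%). Each of these GCMT stretches held 5 of the 6 genes, and the gene left out changed from 1 stretch to the next. Both enzymes thus read low levels from 50 to 150 bp after the operator, but only CCMT set this stretch apart from both sides. With GCMT the level at 50 to 100 bp was within counting error of the first 50 bp, and 200 to 250 bp was also low. The second maximum at 150 to 200 bp was clear with CCMT and within the counting error of its neighbours with GCMT. The low stretch contains the TATAAA nearest the gene in 5 of 6 a-specific genes, which begins 117 bp after the operator in MFA1, 98 bp in MFA2, 78 bp in STE6, 101 bp in BAR1 and 135 bp in AGA2. STE2 has no TATAAA in the direction of the gene between its operator and its start codon. On the far side of the operator the level was also low, with 4.62% by CCMT and 5.95% by GCMT at 100 to 150 bp before it and 6.38% by CCMT and 5.35% by GCMT at 50 to 100 bp before it.

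**Figure D4:**
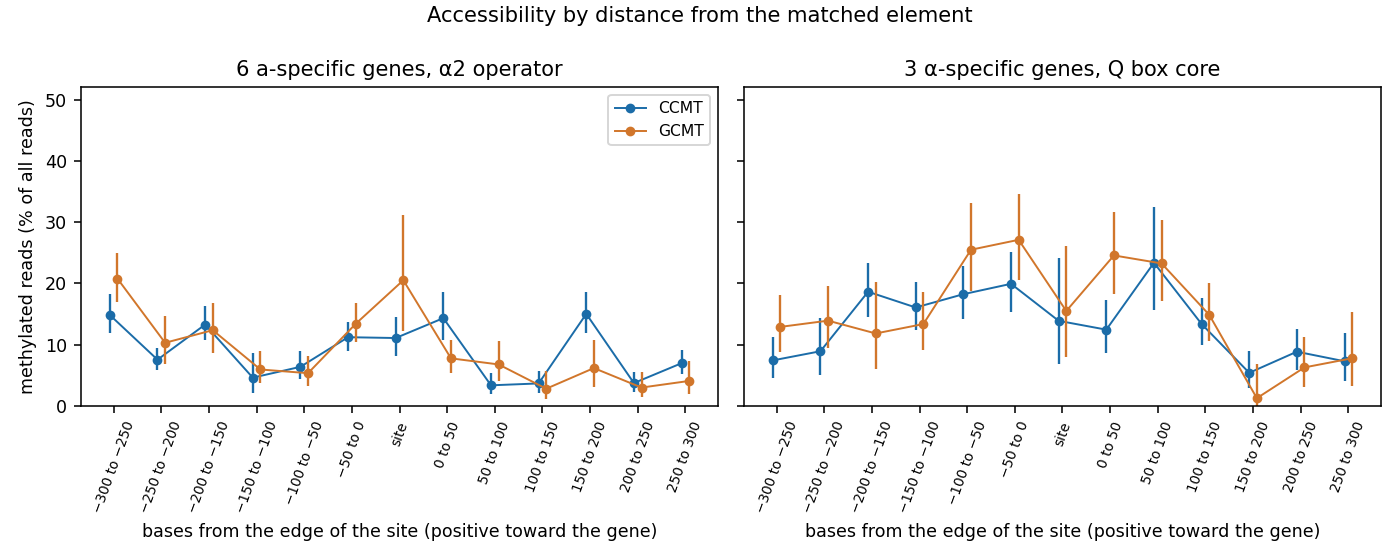
Percent of reads methylated by distance from the α2 operator in 6 a-specific genes (left) and from the Q box core in 3 α-specific genes (right), positive toward the gene, pooled over genes of 1 library with 95% exact binomial intervals. A gene without a listed cytosine in a bin is left out of that bin, so the genes behind neighbouring points can differ. On the left both enzymes are low from 50 to 150 bp on each side of the operator, and GCMT stays low beyond that toward the gene. On the right pooled levels of 12 to 27% run from 100 bp before to 150 bp after the site.

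Around the Q box core, reads were pooled over MF(ALPHA)2, STE3 and SAG1. With CCMT the level was 19.9% in the 50 bp before it (interval 15.4 to 25.1%), 12.5% in the 50 bp after it (interval 8.56 to 17.3%), 23.4% at 50 to 100 bp (interval 15.7 to 32.5%) and 5.41% at 150 to 200 bp. With GCMT it was 27.1% in the 50 bp before (interval 20.5 to 34.5%), from STE3 and SAG1 only, as MF(ALPHA)2 had no listed cytosine there. In the 50 bp after it was 24.6% (interval 18.3 to 31.7%), from SAG1 and MF(ALPHA)2 only, as STE3 had none. These 2 GCMT values thus come from different pairs of genes. With all 3 genes the GCMT level was 23.3% at 50 to 100 bp and 1.27% at 150 to 200 bp. At 50 to 100 bp the pooled intervals of the a-specific and the α-specific genes did not overlap with either enzyme. The groups were not read at like distances from the start codon, however. The operators ended between −269 (AGA2) and −182 (STE6), and the cores between −333 (STE3) and −262 (SAG1). Group and position were thus not separated in this comparison. The 3 α-specific genes also differed at 50 to 100 bp. With GCMT, 36 of the 40 methylated reads came from STE3 (36 of 109), against 3 of 37 reads in SAG1 and 1 of 26 in MF(ALPHA)2, whose mean levels of 7.14% and 4.17% were not above the a-specific range of 6.04 to 10.2%. With CCMT the levels were 28.1% in STE3, 35.5% in SAG1 (1 cytosine) and 3.33% in MF(ALPHA)2 (1 cytosine). MF(ALPHA)2 was thus low there with both enzymes, as it was at 100 to 150 bp, with 4.98% by CCMT and 3.33% by GCMT. MF(ALPHA)1 has no exact core and is outside these values.

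After the stop codon the group medians lay near those of all genes, and single genes spread widely. The a-specific median over 300 bp was 10.6% with CCMT and 11.6% with GCMT, and the α-specific median 9.97% with CCMT and 14.2% with GCMT, against 11.1% with CCMT and 10.9% with GCMT for all genes. SAG1 was the highest with 21.1% by CCMT and 35.1% by GCMT, and 98.9% of genes lay below it with GCMT. The SAG1 stretch also lies upstream of MRX12, which begins on the same strand 356 bp after the SAG1 stop codon. BAR1 had 16.8% with CCMT and 33.7% with GCMT. The BAR1 stretch holds the tRNA gene YNCI0008C, with 24.01% inside it by CCMT and 51.4% by GCMT, against 6.10% by CCMT and 18.9% by GCMT at the other cytosines.

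CCMT and GCMT were also compared gene by gene. For the promoter region the CCMT level was higher in 7 genes and the GCMT level in 3, with differences (CCMT minus GCMT) from −7.87 points in STE3 to 7.53 points in MFA2, and the intervals overlapped in 10 of 10 genes. From −400 to −250 they overlapped in 9 of 10, the exception being STE3. Over 223 windows of 50 bp with both kinds of cytosine, the levels of the libraries correlated with r = 0.61 (Spearman 0.48). Within single genes r ran from 0.11 in STE6 (22 windows) to 0.77 in SAG1 (23 windows). These windows share base composition and position, and the values are a description.

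Genes that act in both mating types or elsewhere in the pathway are given beside the members. Of all genes, 56.6% had a promoter level at least 2 times the coding level with CCMT and 61.3% with GCMT, and each count below stands against these shares. Of the 17 shared pheromone pathway genes, 10 did with CCMT and 10 of the 16 measured with GCMT, which is near the share of all genes. Their median promoter level was 17.2% with either enzyme, below the all-gene medians of 18.0% with CCMT and 19.3% with GCMT. By the mean of both libraries, which ranks the genes named here, the highest of them was STE7, a kinase of the pathway, with 27.4% by CCMT and 34.2% by GCMT, and the lowest was SST2, a regulator that turns signalling off, with 9.85% by CCMT and 7.5% by GCMT. The 6 genes of a-factor processing had medians of 23.9% with CCMT and 25.1% with GCMT. In this list 4 of 6 reached 2 times the coding level with CCMT and 5 of 6 with GCMT. By the mean of both libraries RAM1, a farnesyltransferase subunit, was the lowest of them, with 10.3% by CCMT and 17.8% by GCMT. STE24, a protease, was the highest with 36.04% by CCMT and 30.9% by GCMT, and it held an operator match with 2 mismatches at −287. Of the 3 genes of α-factor processing, STE13, a dipeptidyl aminopeptidase, had 33.6% with CCMT and 38.2% with GCMT, and KEX2, the protease that cuts the precursor, 6.35% and 9.94%, and 2 of 3 reached 2 times the coding level with either enzyme. Among 6 regulators, the medians were 16.6% with CCMT and 17.6% with GCMT, and 4 reached 2 times the coding level with CCMT and 3 with GCMT. By the mean of both libraries TUP1, the corepressor gene, was the lowest with 3.32% by CCMT and 6.54% by GCMT, and DIG2, an inhibitor of Ste12, the highest, with 17.5% by CCMT and 26.3% by GCMT. With CCMT alone MCM1 was the highest with 21.8%.

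A further pair of type-specific genes was outside the 10. ASG7, an a-specific gene, held an operator match with 2 mismatches at −156 and had promoter levels of 9.42% with CCMT (4 cytosines, 76 reads) and 11.4% with GCMT (8 cytosines, 127 reads), both below the all-gene median. AFB1, which encodes the a-factor barrier protein, held no match and had 12.2% with CCMT and 21.2% with GCMT.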

How the data were processed

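Fixed S288C nuclei were treated with CCMT or GCMT and read by bisulfite sequencing. Mapping was done by the authors with BMap (sacCer3), and they deposited, per cytosine, a read count (coverage, not normalized) and a methylation level as a fraction. Versions, filters and the handling of duplicates are not given in the sources used here. A supplementary listing of the study gives the CCMT library under another sample than the labels, and the labels were followed. Labels (1% formaldehyde, 0.1% NP-40) and methods differ in these concentrations.

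File positions count from 0 and were raised by 1, after which 100% of listed cytosines stood in CC or GC of R64. Count times fraction was whole for 100% of cytosines (methylated reads). All listed cytosines had at least 5 reads. A level is the mean over listed cytosines of a region, in percent. All-gene values needed at least 3 cytosines. Python 3 with pandas and scipy was used, and region means were tested on simulated data. Members and lists were chosen with earlier results of these data known. Named were the 10 members, ASG7, AFB1, overlapping neighbours, and the highest and lowest gene of each further list by mean promoter level. Alternatives covered coverage, GCC cytosines, depth, pooling, region limits and other genes.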

Additional observations from a re-analysis of the deposited data

How the results depend on the processing

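The lower a-specific than α-specific promoter level held its direction with either enzyme under the alternatives named here, but not in the last 100 bp before the start codon. The difference there was 3.69 points with CCMT and 1.53 with GCMT, over 3 α-specific genes. The GCMT direction there rests on MF(ALPHA)2, with 2 cytosines and 13 reads. For −300 to −50 instead of −250 to −100, the GCMT α-specific median was 18.4% and the GCMT difference −11.0 points. With CCMT, STE3 at 19.5% was then the highest gene, and SAG1 had 15.8%. For −400 to −250, chosen after seeing the data, the CCMT α-specific median was 19.5% and the difference −9.77 points, and with GCMT the a-specific median was 10.04%, the α-specific median 30.7% and the difference −20.6 points. For −800 to −1, also chosen after seeing the data, the α-specific medians were 13.98% with CCMT and 17.2% with GCMT and the GCMT a-specific median 8.70%. MFA1, called at 2 times coding with CCMT, had a promoter minus coding level of −2.42 points for −400 to −250. A minimum of 10 reads, leaving out GCC cytosines or cytosines inside other genes, pooling reads, and requiring 3 cytosines changed the group values little. No group median moved by more than the counting error of its group's pooled promoter reads, nor the difference by more than both errors combined. These limits are not intervals of the medians and leave out the spread between genes. Thinning CCMT reads to the GCMT coverage moved none of the CCMT group values. Promoter levels of single genes were less stable. Over all alternatives they moved by more than their counting interval in 26 cases and not in 143. With 1 library per enzyme, no spread between replicates could be measured, and no paired analysis was possible because each enzyme has 1 library. Depth limits single regions most in the GCMT library, where MFA1 rests on 29 promoter reads.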

Other observations

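Each GC dinucleotide carries a cytosine on both strands, so the GCMT library gives a pair of levels at 1 position. In the 10 regions 831 pairs were listed on both strands, and the 95% intervals of the members of a pair did not overlap in 3 of them, or 0.361%, against 0.315% of 409076 pairs in the nuclear genome. The 3 pairs were chosen after their values were seen. In STE3 at −238 the cytosine of the top strand had 0 of 14 reads methylated and its partner 10 of 19. In STE6, 958 bp after the start of the coding sequence, they had 11 of 19 and 0 of 11, and in MF(ALPHA)2 at −765 they had 7 of 9 and 1 of 15.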
